A study of Mus musculus with 8 samples.

Results

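The 10 genes described here encode proteins that coat the hepatocyte lipid droplet or that make and break down the triglyceride in it. They are the perilipins Plin2, Plin4 and Plin5, the CIDE proteins Cidea, Cideb and Cidec, the lipases Pnpla2 and Pnpla3, the lipase inhibitor G0s2 and the acyltransferase Mogat1. They were taken by name, with every probe set annotated to exactly 1 of these symbols, which gave 12 probe sets out of 45101 on the array. Signals were measured on 8 Affymetrix arrays of liver from male C57BL/6 mice aged 7 to 10 weeks. Wild type animals and Tob1 null animals on the same background were each sampled unoperated (0 h) or 24 h after a partial hepatectomy, in which the median and left lateral lobes were ligated under ketamine and xylazine. Each of the 4 groups had 2 arrays, and each array carried a different pool of 3 animals. Errors given as ± are standard errors from 1 fit of all 4 groups, unless marked SD. They rest on the spread between pools, shared over the groups and drawn towards that of all genes, and include measurement error of the arrays. The study addresses how the absence of Tob1, an antiproliferative protein of the BTG/TOB family, changes the response of the liver to loss of tissue. The 8 arrays include no sham-operated animals, so the effects of surgery and of tissue loss cannot be told apart. Whether the mice lacked Tob1 in every tissue is not given in the labels.

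Over all probe sets, Pearson's r between the arrays of a group was 0.951 to 0.959. The gene Tob1 itself gave no check of the labels, because its brighter probe set was higher in the arrays labelled Tob1 null (0.57 ± 0.15 on the log2 scale at 0 h, adjusted p = 0.403), and where its probes lie relative to the deletion is not known here. Its dimmer probe set read 5.19 and 4.02 in wild type and 2.65 and 4.06 in the null arrays at 0 h, and 4.27 and 4.96 against 2.78 and 3.83 at 24 h, so the group means of its probe sets ran opposite ways. They are therefore called the null-labelled arrays, or null pools, and each direction between genotypes rests on the labels. The log2 signal ratio of 3' to 5' actin probes, a sign of RNA quality, was lower at 24 h in both genotypes, at 0.97 ± 0.09 (SD, n = 2) against 1.22 ± 0.25 in wild type and 1.27 ± 0.07 against 1.56 ± 0.03 in the null pools. Its part in the results below was not tested. The summed signal of 6 hepatocyte markers, among them Alb, Ttr and Apoa1, lay between 46800 and 51803 linear signal units in every array. Most of it came from Alb, Ttr and Apoa1, which were among the brightest signals. Quantile normalisation gives such ranks nearly the same values on every array, so the narrow range says little about hepatocyte content. Each of the 6 was above the filter limit on all 8 arrays. That limit is a quantile-normalised log2 signal of 3.60, the 40th percentile of the arrays, which a probe set had to pass on at least 2 arrays to be tested. In bulk tissue, a change in the number of cells of a type and a change in RNA per cell cannot be told apart.

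Lipid droplets store triglyceride under a coat of proteins that decides how fast the core can be reached. Perilipins shield or recruit lipases, CIDE proteins enlarge droplets by passing lipid from one droplet to another, and Pnpla2, also called ATGL, cuts the first fatty acid from triglyceride and is held back by G0s2. A remnant liver is known to fill transiently with such droplets in the first days after partial hepatectomy, before and while hepatocytes divide.

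The perilipins, Cidec and Pnpla2 were higher 24 h after hepatectomy, and Cideb was lower. In the difference between 24 h and 0 h averaged over both genotypes, 5 of the 9 members that could be tested rose (Plin2, Plin4, Plin5, Cidec and Pnpla2) and 1 fell (Cideb), by limma with Benjamini-Hochberg adjustment over all genes at a threshold of 0.05. Over all 14450 genes tested, 13.8% were called higher and 15.0% lower in that comparison. With median centring in place of quantile normalisation the share of higher calls among all called genes moved from 47.8% to 62.5%. The members' median difference was 0.88 on the log2 scale, against -0.04 over all genes. Cidec was above the filter limit on the 24 h arrays alone, so the filter let it be counted only as a rise. Among the other 8 members 4 rose and 1 fell, with a median of 0.68. G0s2, Pnpla3 and Mogat1 did not pass, and Cidea was too dim on every array to be tested. No member passed the test between the genotypes at either time.

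**Figure D1:**
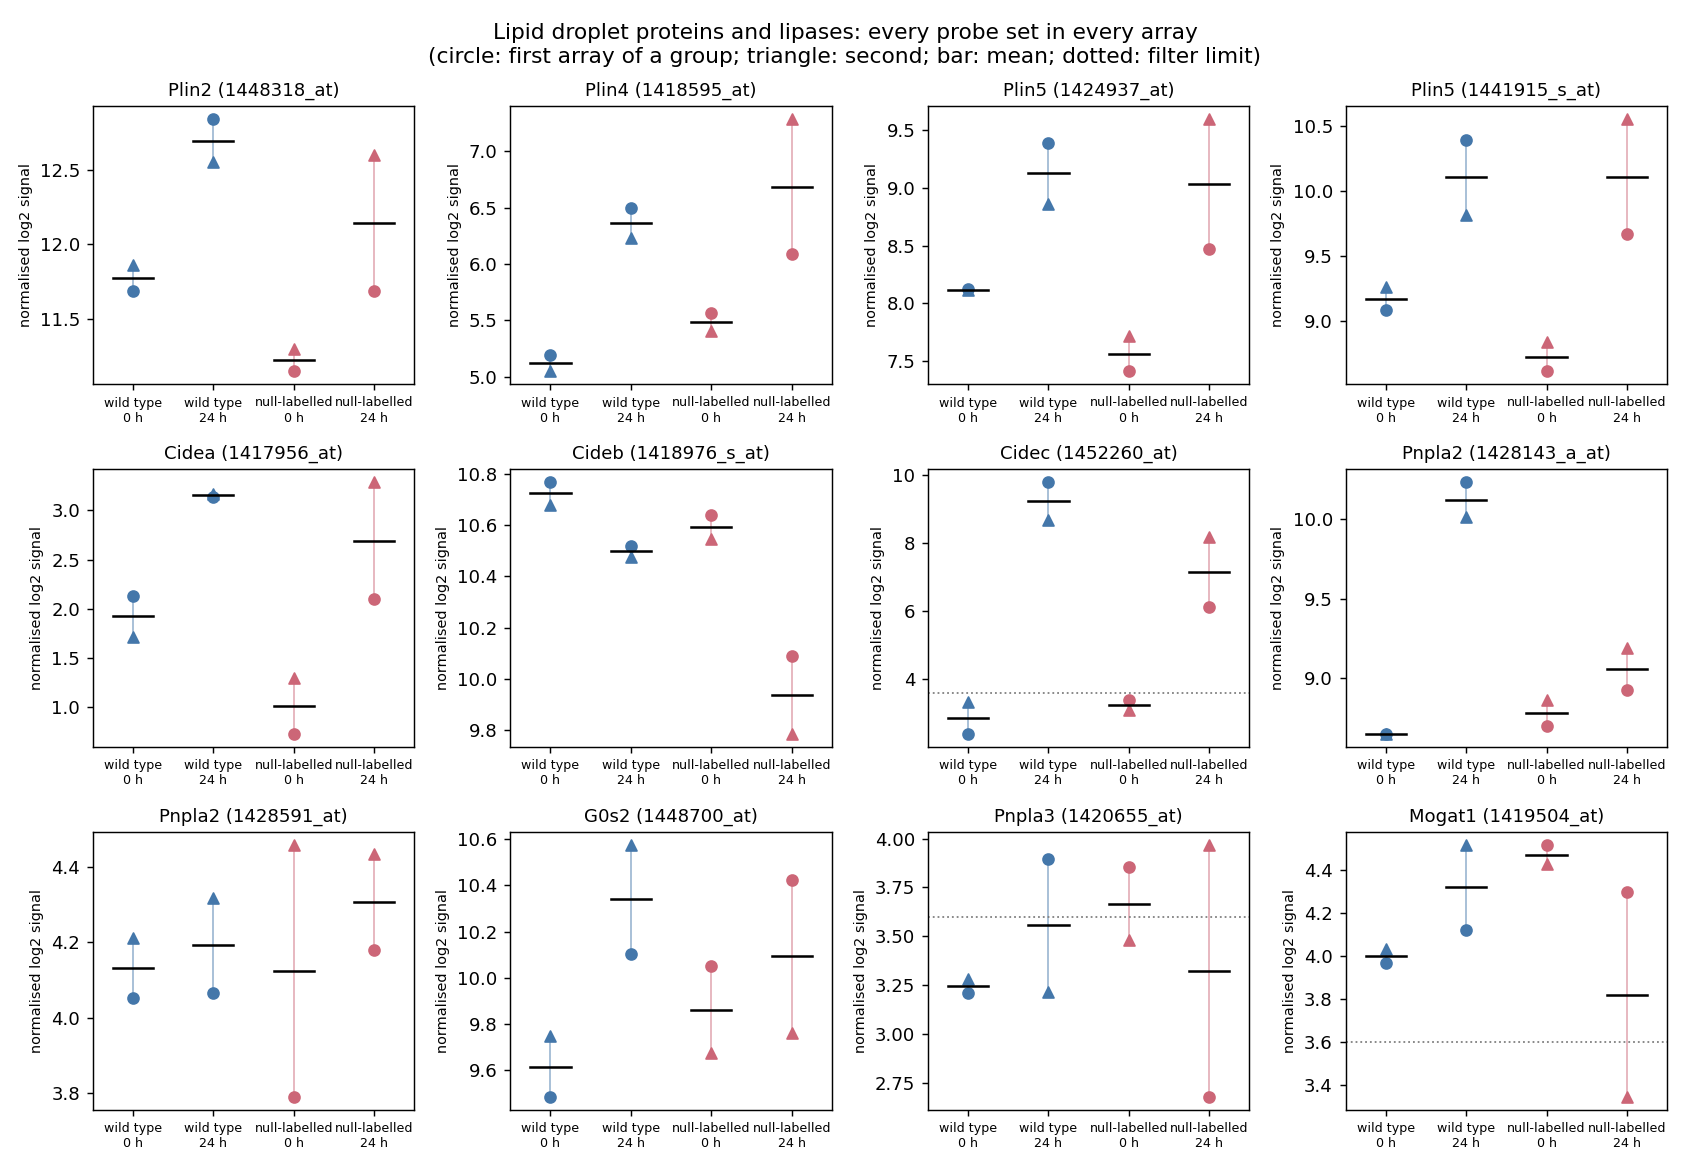
Each panel plots the normalised log2 signal of 1 probe set in the 4 groups on the horizontal axis, with a circle for the first array of a group, a triangle for the second, a bar for their mean and a dotted line at the filter limit of 3.60 where it falls in the panel. Both 24 h arrays lie above both 0 h arrays of the same genotype for Plin2, Plin4, Plin5, Cidea, Cidec and the brighter Pnpla2 probe set, and Cideb shows the reverse.

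The genes that rose together are set beside the DNA just before their start sites. The 250 bases upstream of the RefSeq start (GRCm38.p6) were searched on both strands for AGGTCA, the hexamer bound by PPAR and other nuclear receptors, for its direct repeat AGGTCANAGGTCA, for CACGTG, for TATAAA and for CCAAT, and matches are printed in capitals. AGGTCA is part of the direct repeat. Windows of 9 of the 10 members are described, and Cidea was left out. For genes with more than 1 listed start, the outermost window is shown. The windows are chr4:86670060-86670309 for Plin2, chr17:56109783-56110032 for Plin4, chr17:56117549-56117798 for Plin5 and chr6:113435761-113436010 for Cidec, all on the minus strand, and chr7:141454938-141455187 on the plus strand for Pnpla2.
Plin2: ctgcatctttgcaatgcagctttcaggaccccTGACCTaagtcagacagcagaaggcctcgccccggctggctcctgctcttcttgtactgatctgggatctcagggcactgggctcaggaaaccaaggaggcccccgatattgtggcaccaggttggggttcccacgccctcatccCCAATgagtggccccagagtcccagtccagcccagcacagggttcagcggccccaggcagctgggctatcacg
Plin4: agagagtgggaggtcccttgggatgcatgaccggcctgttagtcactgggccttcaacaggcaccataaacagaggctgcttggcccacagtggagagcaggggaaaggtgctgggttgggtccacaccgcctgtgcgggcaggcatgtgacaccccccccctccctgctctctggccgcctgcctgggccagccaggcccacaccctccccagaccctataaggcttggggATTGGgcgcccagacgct
Plin5: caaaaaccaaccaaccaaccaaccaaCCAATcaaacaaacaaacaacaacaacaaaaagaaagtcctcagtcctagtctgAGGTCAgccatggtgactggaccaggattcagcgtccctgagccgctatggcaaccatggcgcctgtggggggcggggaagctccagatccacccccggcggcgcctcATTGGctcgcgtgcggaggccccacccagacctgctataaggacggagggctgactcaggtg
Cidec: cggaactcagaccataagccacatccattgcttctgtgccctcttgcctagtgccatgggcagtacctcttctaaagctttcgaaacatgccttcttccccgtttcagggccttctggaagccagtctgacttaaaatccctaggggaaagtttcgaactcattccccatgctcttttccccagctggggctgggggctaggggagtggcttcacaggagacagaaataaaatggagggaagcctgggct
Pnpla2: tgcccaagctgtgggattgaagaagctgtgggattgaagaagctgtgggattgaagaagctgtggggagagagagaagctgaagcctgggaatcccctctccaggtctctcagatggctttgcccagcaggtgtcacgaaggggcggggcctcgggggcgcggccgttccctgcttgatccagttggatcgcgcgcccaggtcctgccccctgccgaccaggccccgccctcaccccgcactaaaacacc
Plin2 has 1 AGGTCA match, 218 bases before the start and on the reverse strand, and Plin5 has 1, 170 bases before it. Over all 32851 such windows, 14% hold this hexamer, 6.02% CACGTG and 12.4% TATAAA. The direct repeat is in none of the windows of these 9 members and in 0.0335% of all. CCAAT or its reverse is in the windows of Plin2, Plin4 and Plin5 shown here and in 33.8% of all. The windows of Cidec and Pnpla2 hold no match, nor do the inner windows of Cidec and Plin5. Of the members that were not called higher, Pnpla3 has 1 CCAAT in reverse, 99 bases before its start. Cideb has 1 TATAAA, 172 bases before its start, and the windows of G0s2 and Mogat1 hold no match. Plin4 and Plin5 are also neighbours on chromosome 17, with 0 annotated genes between them.

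Plin2, the main perilipin of hepatocyte droplets, rose in the response averaged over both genotypes. Its normalised log2 signal was 11.69 and 11.86 in wild type at 0 h and 12.84 and 12.55 at 24 h. In the null pools it was 11.15 and 11.30 at 0 h and 11.69 and 12.60 at 24 h. Within each genotype the 24 h arrays were both above the 0 h arrays, but the first null pool at 24 h was no higher than wild type without surgery. The differences were 0.92 ± 0.30 (log2 ± SE, adjusted p = 0.107) in wild type and 0.92 ± 0.30 (adjusted p = 0.0915) in the null pools, and neither passed. Both errors draw on the spread within all 4 groups. The second pool minus the first was 0.91 in the null group at 24 h, and 0.17 at 0 h and -0.29 at 24 h in wild type. Not passing in wild type therefore does not show a lack of response there. The null value ran from 0.46 to 1.37 with 1 array left out, and it was 1.37 without the first null pool at 24 h. The difference between responses was -0.00 ± 0.43. Averaged over both it rose by 0.92 ± 0.21 (1.89-fold, adjusted p = 0.0254). That averaged call ended without any 1 of the 4 arrays at 0 h or the first wild type pool at 24 h, where the difference was 0.85 to 0.96 and the adjusted p 0.0637 to 0.0805, and with median centring (0.92, adjusted p = 0.0584). At 0 h both null pools were below both wild type pools, a difference of -0.55 ± 0.30 that did not pass (adjusted p = 0.616). At 24 h the genotype groups overlapped.

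Plin4, a perilipin found mostly in fat and muscle, was at 5.19 and 5.05 in wild type at 0 h and at 6.50 and 6.23 at 24 h. The null pools gave 5.57 and 5.41 at 0 h and 6.08 and 7.29 at 24 h. All 4 arrays at 24 h were higher than all 4 at 0 h, a separation that 15.0% of the genes tested showed in this direction. The averaged difference was 1.22 ± 0.27 (2.33-fold, adjusted p = 0.0211), and single genotypes did not pass, with 1.24 ± 0.38 (adjusted p = 0.0907) in wild type and 1.20 ± 0.38 (adjusted p = 0.0822) in the null pools. Each was called in 3 of 19 alternatives, with adjusted p down to 0.0276 and 0.0272. Leaving out the first null pool at 24 h gave a null value of 1.80, and leaving out the second gave 0.60. The averaged call ended without any 1 of the arrays at 0 h or the first wild type pool at 24 h (1.15 to 1.26, adjusted p 0.0597 to 0.0682).

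Plin5, the perilipin of oxidative tissues that tethers droplets to mitochondria, was measured by a pair of probe sets that moved alike. The brighter one read 9.08 and 9.26 in wild type at 0 h, 10.40 and 9.82 at 24 h, 8.61 and 8.84 in the null pools at 0 h and 9.67 and 10.56 at 24 h. All arrays at 24 h were above all arrays at 0 h. The averaged difference was 1.16 ± 0.24 (2.24-fold, adjusted p = 0.0174), and that of the dimmer probe set, in the fit of all probe sets, was 1.24 ± 0.27 (adjusted p = 0.0259). In the null pools alone Plin5 rose by 1.39 ± 0.33 (adjusted p = 0.0452), and in wild type the difference was 0.94 ± 0.33 (adjusted p = 0.129). The difference between these responses, 0.45 ± 0.47 (adjusted p = 0.798), did not pass. The averaged call ended without the first array of wild type at 0 h, of wild type at 24 h or of the null group at 0 h (1.12, 1.02 and 1.11, adjusted p = 0.06, 0.053 and 0.0601). The call in the null pools held only without the first null pool at 24 h (1.83, adjusted p = 0.0352) and ended without any 1 of the other 7 arrays (0.94 to 1.50, adjusted p 0.055 to 0.181). It also ended in 5 other settings, among them the fit of all probe sets, where neither probe set passed (adjusted p = 0.0539 and 0.0641).

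Cidec, also called Fsp27, is a CIDE protein of white fat that appears in the fatty liver, and it had the largest change of the members. It read 2.38 and 3.33 in wild type at 0 h and 9.80 and 8.68 at 24 h, and 3.39 and 3.09 in the null pools at 0 h and 6.11 and 8.17 at 24 h. Every array at 0 h was below the filter limit of 3.60 and every array at 24 h was far above it, with the wild type pools highest. It rose by 6.38 ± 0.74 in wild type (adjusted p = 0.0158) and by 3.90 ± 0.74 in the null pools (adjusted p = 0.0274). Since it passed the filter only through the 24 h arrays, its direction was fixed by that choice and these p-values are given as a description. Because a fold against such dim signals is imprecise, the fit was repeated with 16 added to the linear signals, which gave 4.73 ± 0.56 and 2.66 ± 0.56. The averaged difference was 5.14 ± 0.52 (adjusted p = 0.0033), and 3.69 to 5.65 over the 18 alternatives run. It passed in each, but most of them kept the same filter, so this too is only a description. The wild type call ended without either wild type pool at 0 h or the first at 24 h (5.83 to 6.86, adjusted p 0.0757 to 0.107). In the null pools the call ended without either wild type pool at 0 h (3.90, adjusted p = 0.0516), either null pool at 0 h (4.05 and 3.75, adjusted p = 0.119 and 0.109) or the second null pool at 24 h (2.87, adjusted p = 0.0701).

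At 24 h Cidec was lower in both null pools than in both wild type pools, with a log2 difference of -2.10 ± 0.74 (unadjusted p = 0.0298 by limma's moderated test, adjusted p = 0.367). The difference between responses was -2.49 ± 1.05 (adjusted p = 0.585). Neither passed the threshold. The difference at 24 h was -3.13 without the second and -1.07 without the first null pool at 24 h, so its size depended on the pool.

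Cideb, the CIDE protein of healthy hepatocytes, which takes part in loading triglyceride onto VLDL, went the other way. It read 10.77 and 10.68 in wild type at 0 h, 10.52 and 10.48 at 24 h, 10.64 and 10.55 in the null pools at 0 h and 10.09 and 9.78 at 24 h. All arrays at 24 h were below all arrays at 0 h, which 16.5% of genes also showed. Cideb fell by 0.44 ± 0.10 on average (adjusted p = 0.0244). In the null pools it fell by 0.66 ± 0.14 (adjusted p = 0.0359), while wild type gave -0.23 ± 0.14 (adjusted p = 0.34). The difference between responses did not pass (-0.43 ± 0.20, adjusted p = 0.61), nor did the genotype difference at 24 h (-0.56 ± 0.14, unadjusted p = 0.00783, adjusted p = 0.274 by limma). The averaged call held without either null pool at 24 h and ended without any 1 of the other 6 (-0.47 to -0.42, adjusted p 0.06 to 0.0834). The null call held only without the first null pool at 24 h (-0.81, adjusted p = 0.0392), and without any 1 of the other 7 it ended, with adjusted p from 0.0568 to 0.164 and the value between -0.70 and -0.50. The null call also ended in 5 other settings, among them median centring (-0.53, adjusted p = 0.062) and no filter (-0.66, adjusted p = 0.065).

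Cidea, the CIDE protein of brown fat, stayed below the filter limit on all 8 arrays. It read 2.13 and 1.71 in wild type at 0 h, 3.14 and 3.17 at 24 h, 0.72 and 1.30 in the null pools at 0 h and 2.10 and 3.29 at 24 h. The 24 h arrays were the higher ones within each genotype, at signals where a fold has little meaning. In a fit without the filter its averaged difference was 1.46 ± 0.30 (adjusted p = 0.0307).

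Pnpla2, the triglyceride lipase, was higher at 24 h in wild type and did not pass in the null pools. Its brighter probe set read 8.65 and 8.64 in wild type at 0 h and 10.24 and 10.01 at 24 h. The null pools read 8.70 and 8.86 at 0 h and 8.92 and 9.19 at 24 h. The wild type pools at 24 h stood above the other 6. Pnpla2 rose by 1.48 ± 0.15 in wild type (2.79-fold, adjusted p = 0.0155), and the null difference was 0.28 ± 0.15 (adjusted p = 0.255). In wild type the call ended without either array at 0 h or the first at 24 h (1.48, 1.48 and 1.37, adjusted p = 0.105, 0.0801 and 0.0709). The averaged difference of 0.88 ± 0.11 (adjusted p = 0.00467) passed under all 18 alternatives.

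The test of the difference between the Pnpla2 responses gave -1.20 ± 0.22, with an unadjusted p of 0.00141 and an adjusted p of 0.433 by limma, so the responses were not shown to differ. At 24 h the null pools were lower, with a difference of -1.07 ± 0.15 (unadjusted p = 0.000417, adjusted p = 0.155). That difference was called in 2 of 19 alternatives, with 16 added to the signals (-1.05, adjusted p = 0.0471) and with a trended and robust prior (-1.07, adjusted p = 0.013). Over the alternatives the adjusted p ran from 0.013 to 0.506. The second Pnpla2 probe set did not follow the first. It was dim, between 3.79 and 4.46 on every array, and its differences were 0.06 ± 0.25 in wild type and 0.18 ± 0.25 in the null pools (adjusted p = 0.909 and 0.662 in the fit of all probe sets).

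**Figure D2:**
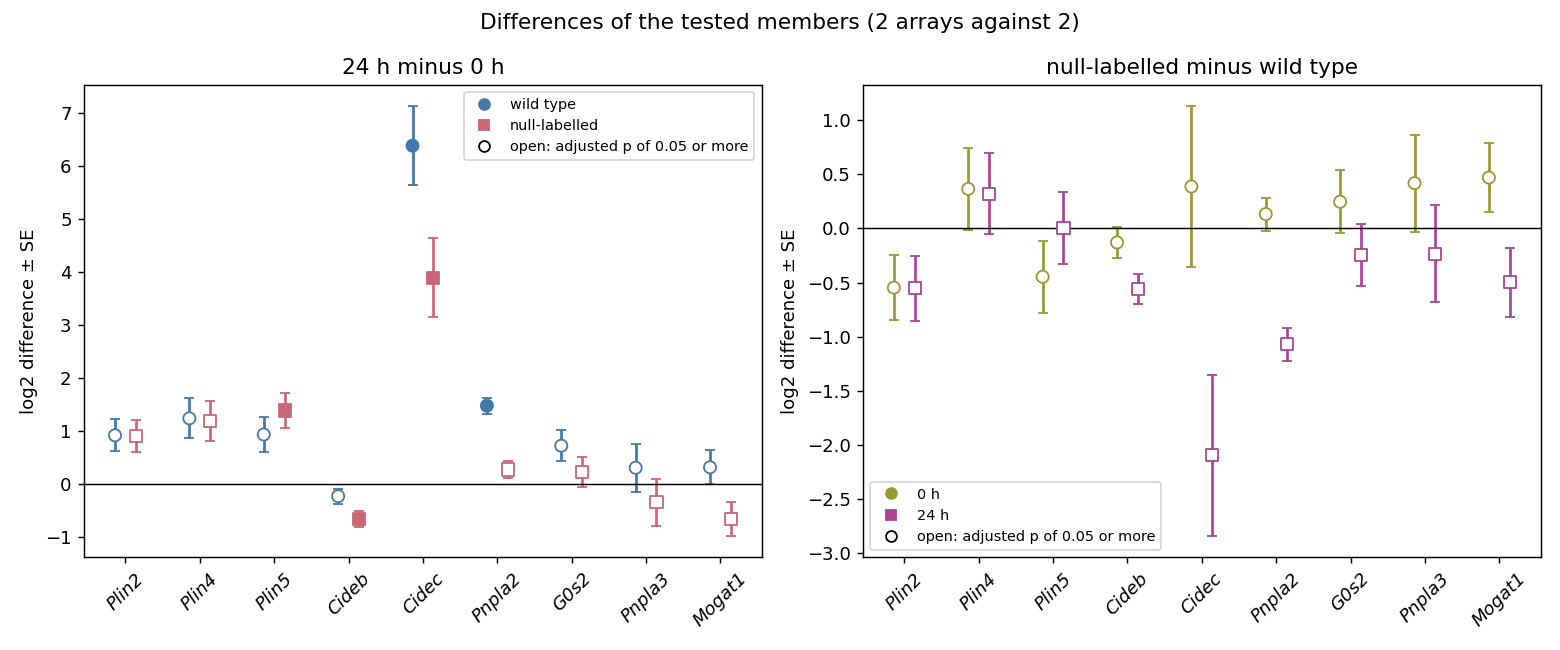
The vertical axes give log2 differences ± SE for the 9 tested members, at left 24 h minus 0 h in wild type (circles) and null-labelled arrays (squares), at right null-labelled minus wild type at 0 h (circles) and 24 h (squares); open symbols have an adjusted p of 0.05 or more. Cidec and Pnpla2 are the filled wild type points, Plin5, Cideb and Cidec the filled null-labelled ones, and every genotype difference is open.

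G0s2, the inhibitor of Pnpla2, read 9.48 and 9.75 in wild type at 0 h and 10.10 and 10.58 at 24 h, and 10.05 and 9.67 in the null pools at 0 h and 10.42 and 9.76 at 24 h. The wild type groups did not overlap, whereas the null groups did. The differences of 0.72 ± 0.29 (adjusted p = 0.161) and 0.23 ± 0.29 (adjusted p = 0.613) did not pass, and neither did their average (0.48 ± 0.20, adjusted p = 0.132).

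Pnpla3, or adiponutrin, a droplet protein related to Pnpla2 that lipogenic regulators are known to induce, was near the filter limit. It read 3.21 and 3.28 in wild type at 0 h, 3.90 and 3.22 at 24 h, 3.85 and 3.48 in the null pools at 0 h and 2.68 and 3.97 at 24 h. It was above the limit on 3 of 8 arrays, and the groups overlapped at both genotypes. Its averaged difference was -0.02 ± 0.32 (adjusted p = 0.973). Mogat1, an acyltransferase that makes diacylglycerol from monoacylglycerol, read 3.97 and 4.04 in wild type at 0 h, 4.12 and 4.52 at 24 h, 4.52 and 4.43 in the null pools at 0 h and 4.30 and 3.34 at 24 h. The 24 h arrays were the higher pair in wild type and the lower pair in the null group. Neither difference passed, at 0.32 ± 0.32 (adjusted p = 0.545) and -0.65 ± 0.32 (adjusted p = 0.206), though the null value passed without the first null pool at 24 h (-1.13, adjusted p = 0.044).

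Over the whole set, 2 of 9 were called in wild type (Cidec and Pnpla2), both higher, where 4.13% of all genes were called higher and 5.08% lower. In the null pools 2 were called higher (Plin5 and Cidec) and 1 lower (Cideb), against 7.45% and 7.23% of all genes. With median centring the share of higher calls in the null pools moved from 50.7% to 72.6%. The members' median difference came to 0.92 for wild type and to 0.28 for null pools, and the medians over all genes were -0.03 and -0.04. Cidec, whose direction the filter fixed, is counted in both genotypes. Without it, 1 of 8 members was called higher and 0 lower in wild type, and 1 higher and 1 lower in the null pools. The medians of these 8 members were 0.82 and 0.25. In wild type the arrays at 24 h did not overlap those at 0 h for 7 members that were higher and 1 that was lower. Of all genes, 29.4% and 32.7% did so. In the null pools the counts were 5 and 2, against 29.7% and 33.3%. Cidec is 1 of the higher members in each genotype, and the filter left it no other direction. Median centring also moved the median over all genes up by 0.16 in the null response, 0.11 in the averaged response, 0.13 in the genotype difference at 24 h and 0.12 in the difference between responses.

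**Figure D3:**
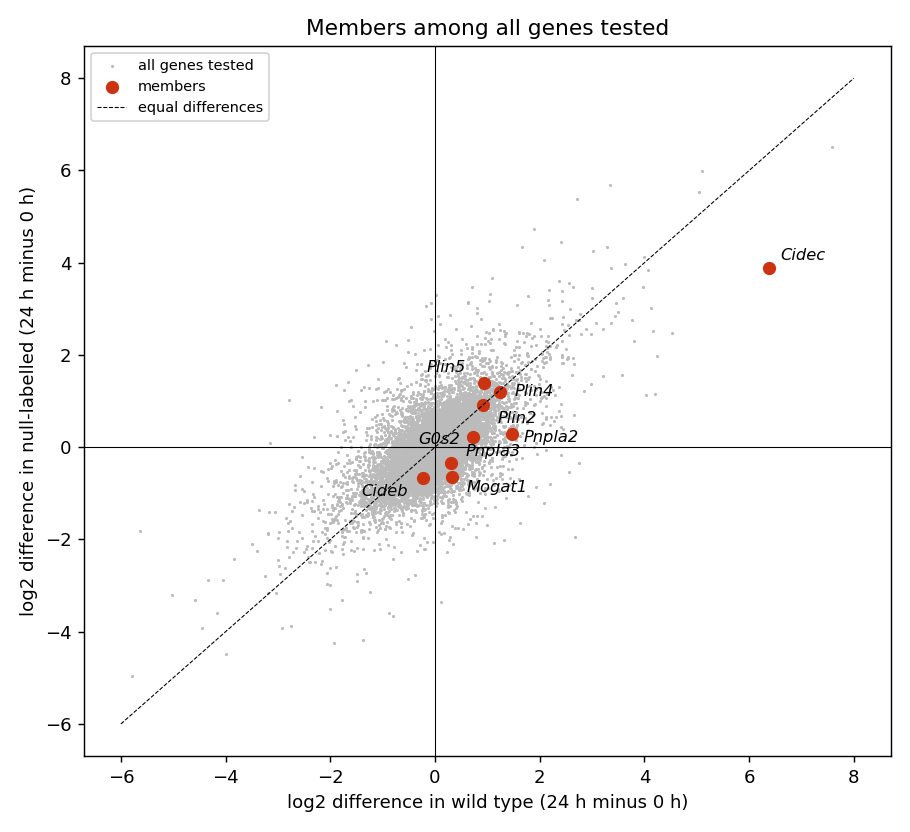
Each grey point is 1 of the 14450 genes tested, with its log2 difference (24 h minus 0 h) in wild type on the horizontal axis and in null-labelled arrays on the vertical axis, and the members are marked in red. Plin2 and Plin4 lie by the dashed line of equal differences, Cidec and Pnpla2 lie below it, and Plin5 above it.

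Between genotypes 0 of 9 members passed by limma. At 0 h 0% of all genes were called, and 0 members had an unadjusted p under 0.05 where 9.62% of all genes did. At 24 h 0.00692% of genes were called in all, and 3 members (Cidec, Cideb and Pnpla2, each lower in the null pools) had an unadjusted p under 0.05, where 11.7% of all genes did. Both null pools lay above both wild type pools at 0 h for 4 members and below them for 3, against 24.2% and 23.9% of all genes, and at 24 h for 0 and 3, against 20.9% and 19.7%. In the difference between responses 0% of genes were called, and 1 member, Pnpla2, had an unadjusted p under 0.05, against 8.61% of all genes. At 24 h, 7 of 9 members were lower in the null pools, with a median of -0.50 where all genes had 0.01. At 0 h, 6 of 9 were higher, with a median of 0.25. These comparisons share their arrays with the responses above.

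The null pools at 24 h were far apart for these genes. The gap between the pools of a group, in log2 units, had a median over the 9 members of 0.91 there, against 0.14 in wild type at 0 h, 0.40 in wild type at 24 h and 0.17 in the null group at 0 h. Over all genes the medians were 0.26, 0.18, 0.22 and 0.17 in the same order. Of the members, 6 of 9 had a gap beyond the 90th percentile of all genes (0.84) in that group, compared with 1, 1 and 0 in the others. The second pool was the higher one for Cidec (by 2.05), Pnpla3 (1.29), Plin4 (1.20), Plin2 (0.91) and Plin5 (0.89), and the lower one for Mogat1 (-0.95). The array of this second pool also had the lowest median of deposited values (3.94, with 4.20 to 4.32 in the other 7 arrays) and the most values at the floor of 0 (1275). Their part in the gap was not tested.

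Markers of fat cells were read because Cidec, Plin4 and Cidea are abundant in adipose tissue. Of 7 markers, 4 were on the array under a single symbol. Adipoq and Lep were below the filter limit on all 8 arrays, with Adipoq between 1.27 and 2.89 and Lep between 0.67 and 2.56. Retn showed an averaged difference of -0.16 (adjusted p = 0.566). Fabp4, a fatty acid binding protein that macrophages and endothelial cells make too, rose by 2.01 (adjusted p = 0.00327). The summed linear signal of the 4 was 177 to 198 in wild type at 0 h, 491 to 743 at 24 h, 154 to 165 in the null pools at 0 h and 524 to 830 at 24 h, most of it from Fabp4. No adipocyte marker was at 0 on all arrays. Among 7 Kupffer cell and macrophage markers, Marco (4.07) and Cd68 (1.26) rose, and Adgre1 (-0.52), Clec4f (-0.59) and Csf1r (-0.71) fell in the averaged response. Cd5l (0.29) and Timd4 (-0.03) did not pass. The summed signal of the 7 was 1773 to 2013, 1622 to 2001, 1865 to 1866 and 1846 to 2217 in the same order of groups. Of the hepatocyte markers Cps1 (-0.40) and Hnf4a (-0.34) fell. Tat (0.35), Alb (0.003), Ttr (-0.001) and Apoa1 (-0.05) did not pass. Markers of other cells went both ways. Of 6 stellate markers Des (-0.87) and Reln (-0.95) fell. Lrat (-1.65), Acta2 (1.46), Pdgfrb (0.37) and Col1a1 (0.21) did not pass. Of 5 endothelial markers Pecam1 (0.79) rose. Lyve1 (0.92), Kdr (-0.73), Clec4g (-0.26) and Stab2 (-0.22) did not pass. Of 4 bile duct markers Sox9 (0.99) rose, and Krt19 (0.48), Krt7 (0.34) and Epcam (0.02) did not pass. Of 3 lymphocyte markers tested Nkg7 (-0.92) and Cd79a (-0.37) fell, and Ptprc (-0.15) did not pass. The part of other cell types in the members' differences was not tested.

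The rest of the droplet pathway was described by 6 lists of genes, and no gene of them was called between genotypes or between responses. In single genotypes the counts of each list reached 0 when 1 array was left out, so the averaged response is given first. For comparison with every count below, 13.8% of all genes tested were called higher and 15.0% lower in the averaged response. The shares were 4.13% and 5.08% in wild type, and 7.45% and 7.23% in the null pools. Counts near these shares say nothing particular about a list. Among 14 measured droplet coat and formation genes, 1 rose and 4 fell in the averaged response, with a median of -0.07. Rab18, a droplet GTPase, rose by 0.36 ± 0.08. Fitm1 and Fitm2, which help droplets bud from the endoplasmic reticulum, fell (-0.96 ± 0.18 and -0.45 ± 0.11), as did Hsd17b11 (-0.87 ± 0.10) and Cav1, or caveolin (-0.68 ± 0.19). In wild type 0 rose and 1 fell, and in the null pools 0 rose and 3 fell. Hilpda, a second inhibitor of Pnpla2, did not pass in the averaged response (1.65 ± 0.56, adjusted p = 0.0738 by limma). It was at 2.01 ± 0.79 in wild type (adjusted p = 0.156) and 1.29 ± 0.79 in the null pools (adjusted p = 0.302). Leaving out each array in turn moved the counts to between 0 and 2 higher and 2 and 5 lower.

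Among 16 triglyceride synthesis genes, 5 rose and 2 fell in the averaged response, with a median of 0.06. The acyltransferases Gpat3 and Agpat3, which act on glycerol phosphate and lysophosphatidic acid, rose by 1.19 ± 0.16 and 0.88 ± 0.11, and Mogat2, which catalyses the same step as Mogat1, rose by 0.84 ± 0.16. Agpat5 rose by 0.45 and Acsl4 by 0.54. Dgat2, which makes triglyceride in the last step, fell (-0.78 ± 0.12), as did Lpin1, a phosphatidate phosphatase (-1.69 ± 0.33). Lpin1 was at -2.86 ± 0.47 in the null pools (adjusted p = 0.0202 by limma) and -0.52 ± 0.47 in wild type (adjusted p = 0.499). The difference between its responses did not pass (-2.34 ± 0.66, adjusted p = 0.543). Over the list, single genotypes gave 2 higher and 0 lower in wild type and 2 and 2 in the null pools. With each array left out in turn, 2 to 5 rose and 1 or 2 fell.

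Among 12 lipase and lipolysis genes, 2 rose and 3 fell, with a median of -0.20. Mgll, the monoacylglycerol lipase, rose by 0.63 ± 0.12 and Pnpla7 by 0.71 ± 0.11. The carboxylesterases Ces1d and Ces1f fell (-1.60 ± 0.13 and -1.40 ± 0.16), as did Aadac, a further hepatic esterase (-0.57 ± 0.08). Each genotype alone had 1 higher and 3 lower. Lipe, the hormone-sensitive lipase, and Abhd5, the activator of Pnpla2, did not pass in either genotype. In wild type Mgll rose by 0.96 ± 0.17 (adjusted p = 0.0282), and in the null pools it was at 0.29 ± 0.17 (adjusted p = 0.274). The difference between these responses did not pass (-0.67 ± 0.24, adjusted p = 0.556). Without single arrays, 1 or 2 rose and 3 fell.

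Among 14 regulators of lipid genes, 3 rose and 5 fell, with a median of -0.19. The lipogenic factors Srebf1 and Mlxipl fell (-2.12 ± 0.19 and -2.26 ± 0.26), as did the coactivator Ppargc1b (-1.87 ± 0.18), Cebpa (-1.68 ± 0.18) and Ppara (-0.82 ± 0.23). Wild type had 1 higher and 4 lower, and the null pools 1 and 5. Ppara was at -1.44 ± 0.33 in the null pools (adjusted p = 0.0405 by limma) and -0.19 ± 0.33 in wild type (adjusted p = 0.737). The difference between its responses did not pass (-1.25 ± 0.47, adjusted p = 0.571). Insig2, Creb3l3 and Ppargc1a rose by 1.51, 0.56 and 0.44. Pparg, a known inducer of Cidec in the fatty liver, was at 0.41 ± 0.36 in wild type and -0.48 ± 0.36 in the null pools (adjusted p = 0.493 and 0.385). Without single arrays, 1 to 3 rose and 4 to 6 fell.

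Among 16 targets of PPAR-alpha, 5 rose and 1 fell in the averaged response, with a median of 0.28. The kinase Pdk4 rose by 3.06 ± 0.62, the thioesterase Acot2 by 1.33 ± 0.28, Ehhadh of peroxisomal oxidation by 0.96 ± 0.12, Pex11a by 0.59 and Acadl by 0.52 ± 0.08, while Acaa1b fell by 0.72 ± 0.13. In wild type 4 rose and 0 fell (median 0.68), and in the null pools 1 rose and 2 fell (median 0.22). That null median was 0.07 without the second and 0.36 without the first null pool at 24 h. Cpt1a rose by 0.80 ± 0.13 in wild type and fell by 0.71 ± 0.13 in the null pools (adjusted p = 0.0243 and 0.0252), while the difference between these responses gave an adjusted p of 0.301. Without single arrays the averaged counts were 2 to 5 higher and 1 lower.

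Among 14 genes of lipid uptake and export, 5 rose and 4 fell in the averaged response, with a median of 0.25. The lipid transporter Mfsd2a rose by 3.11 ± 0.47, Fabp4 by 2.01 ± 0.20, Slc27a4 by 1.23 ± 0.12, Fabp2 by 1.01 ± 0.10 and Mttp, which loads lipid onto apolipoprotein B, by 0.41 ± 0.09. Slc27a5 (-0.76), Lrp1 (-0.88), Fabp1 (-0.41) and Slc27a2 (-0.39) fell. In wild type 6 of 14 rose and 1 fell, including the fatty acid receptor Cd36 at 1.08 ± 0.22 (adjusted p = 0.0385), and in the null pools 3 rose and 3 fell, with Cd36 at -0.23 ± 0.22 (adjusted p = 0.505). The wild type median was 0.57 and the null median -0.28, which became -0.08 without the second null pool at 24 h. For Cd36 the difference between responses did not pass (-1.31 ± 0.31, adjusted p = 0.531). Without single arrays, the averaged counts were 4 or 5 higher and 2 to 4 lower.

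**Figure D4:**
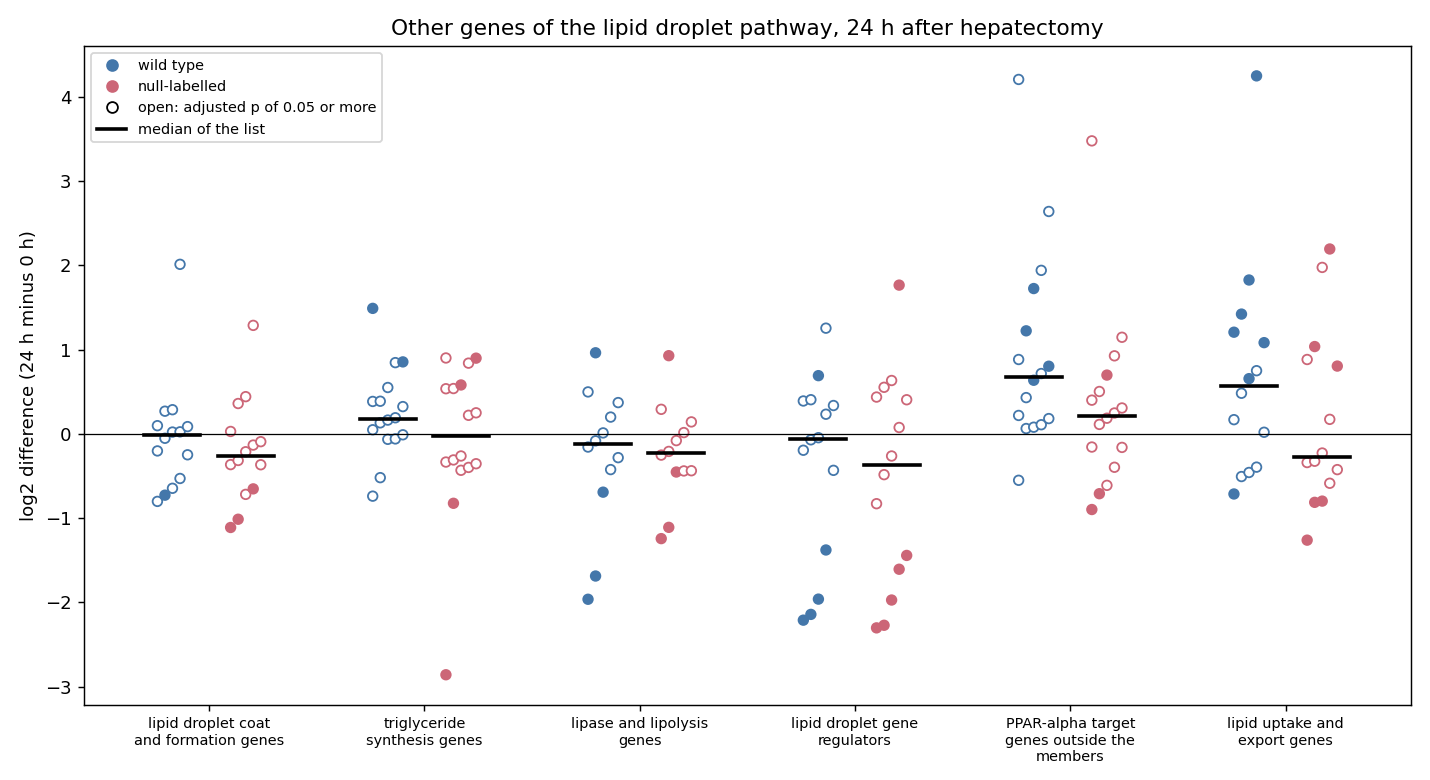
The vertical axis gives the log2 difference (24 h minus 0 h) of each gene of the 6 lists, in wild type (blue) and null-labelled arrays (red), with filled symbols for an adjusted p under 0.05 and a black bar at the list's median. The bar lies at 0.68 in wild type and 0.22 in null-labelled arrays for PPAR-alpha targets, and at 0.57 and -0.28 for uptake and export genes, with null medians of 0.07 and -0.08 without the second null pool at 24 h.

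The genes whose normalised values followed a member most closely over the 8 arrays were listed by Pearson's r, as a description that mixes differences between the 4 groups with the spread within them. For Cidec they were Cog5, Slc27a4 and Ncl (r = 0.990, 0.990 and 0.988). For Pnpla2 they were Kdm4a, Mttp and Sap30l (0.983, 0.983 and 0.980), and for Cideb Cpn1, Glmp and Tlcd1 (0.991, 0.987 and 0.987). Those of Plin2 were Nsf, Snhg3 and Pyroxd1 (0.988, 0.986 and 0.982), those of Plin4 Pold4, Capza1 and Yrdc (0.978, 0.977 and 0.977) and those of Plin5 Nek6, Ppp2cb and Ofd1 (0.989, 0.988 and 0.985).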

How the data were processed

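The deposited values are log2 signals, 1 column per array, as read from the values. Their signal algorithm and scaling are not given in the sources used here. The 45101 probe sets included 64 controls, which were dropped. Of the rest, 34945 had 1 symbol in the platform annotation, 932 several and 9160 none. The lower quartile, median and upper quartile of the arrays differed by up to 0.62, 0.38 and 0.17, so values were quantile normalised, which moved member values by at most 0.42. Probe sets above the 40th percentile of their array (3.60) in at least 2 arrays were kept, and the brightest stood for its gene, leaving 14450 genes.

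One linear model with 4 group means took in the 8 arrays (limma 3.58.1, R 4.3.3; 4 residual and 2.01 prior degrees of freedom), two-sided, with Benjamini-Hochberg adjustment over all genes and a threshold of 0.05. The script was tested on simulated data. Arrays left out in turn leave 1 array in a group, assumed to vary like the others, and the normalisation was kept. p-values rest on the same errors, which draw on the spread between pools in all 4 groups. The members and lists were chosen with earlier results of these data known. All members are named, and from each list the 4 genes with the smallest p in the averaged response and any gene called in another comparison. Outside this rule, and after their values were seen, Cav1, Acsl4, Ppargc1a, Pex11a and Fabp1 were named to complete the counts and Hilpda, Lipe, Abhd5 and Pparg for their roles. The number of arrays limits the precision. Alternatives were other normalisations, filters, probe set rules, priors, weights, damping, a replicate block and fits of the groups compared.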

Additional observations from a re-analysis of the deposited data

Results flagged for a closer look

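Mogat1 read higher in both wild type pools and lower in both null pools at 24 h than in the pools of the same genotype at 0 h. The difference between responses was -0.97 ± 0.45 on the log2 scale and did not pass (adjusted p = 0.603 by limma, 0.391 to 0.873 over the alternatives). Leaving out the second null pool at 24 h, where Mogat1 read 3.34 and so lay below the filter limit, the difference was -0.49. Leaving out the first gave -1.45 (adjusted p = 0.391), and the null response was then called (-1.13, adjusted p = 0.044).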

How the results depend on the processing

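The number of members called depended on single arrays. Leaving out each array in turn gave 0 to 4 in wild type (2 in the fit of all arrays), 0 to 6 in the null pools (3) and 2 to 6 in the averaged response (6). When only the groups compared were fitted, 0 were called in either genotype. In the null response 1 was called without a filter and 1 with the probe set of highest variance. At 24 h, 1 member, Pnpla2, was called between genotypes with 16 added to the linear signals and 1 with a trended and robust prior. The labels do not say whether equal replicate numbers pair the samples. Deviations of same-numbered arrays correlated at -0.20 to 0.05 between groups. These values show no strong shared shift but cannot exclude pairing. With a replicate block 0 members were called in the null response (adjusted p = 0.0542 for Cidec, 0.0564 for Cideb and 0.075 for Plin5), and it changed no other member call. The other counts of members stayed within 1.5 times of those reported. Counts over all genes moved in the same fits. In wild type 7, 3 and 23 genes were called where 0 members were (without either pool at 0 h or the first at 24 h) and 1382 where 4 were. In the null pools 835, 835, 33, 23 and 468 were called where 0 members were, and 1232 where 6 were, without the first null pool at 24 h. Other settings moved them too. In wild type they ran from 2 (only the groups compared) and 332 (block) to 2592 (trended and robust prior) against 1331, in the null pools from 0 and 903 to 3289 (all probe sets) against 2121, and on average up to 7259 (all probe sets) against 4162. Trended and robust priors gave 13, 109 and 10 calls between genotypes at 0 h, at 24 h and between responses, where 0, 1 and 0 were reported.

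Signs turned only among differences that did not pass. With arrays left out in turn, Pnpla3 ran from -0.032 to 0.65 in wild type, -0.99 to 0.30 in the null pools, -0.34 to 0.30 on average (0.00029 without the wild type 0 h pool 2) and -0.88 to 0.41 between genotypes at 24 h. G0s2 ran from -0.10 to 0.56 in the null pools and -0.58 to 0.085 between genotypes at 24 h, Mogat1 from -0.40 to 0.071 on average, and Cidec from -0.088 to 0.87 between genotypes at 0 h. Between genotypes at 24 h Plin4 ran from -0.28 to 0.92 and Plin5 from -0.44 to 0.45. In the difference between responses Plin2 ran from -0.46 to 0.45 and Plin4 from -0.64 to 0.56. Other settings gave 0.011 for Pnpla3 on average with 16 added, -0.094 for Plin5 between genotypes at 24 h with the probe set of highest variance, and for Plin4 between responses 0.047 on deposited values, 0.16 with median centring and 0.028 with 16 added. The cause was not tested. Signal near the filter limit limits Cidec at 0 h, Cidea, Pnpla3 and Mogat1.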

Other observations

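The 6 lists had negative medians in the null pools against wild type at 24 h, and 0 of their genes passed by limma. Of 14 uptake and export genes 3 were higher, with a median of -0.51, and of 16 PPAR-alpha targets 2 were higher, with a median of -0.45. For triglyceride synthesis the median was -0.18, and 3 of 16 were higher. The medians of lipases, coat genes and regulators were -0.18, -0.11 and -0.09, with 5 of 12, 3 of 14 and 5 of 14 higher, and the lipases Ces1d (0.74) and Ces1f (0.63) were among the higher ones. With 1 array left out, the uptake median ran from -0.51 to -0.40, that of PPAR-alpha targets from -0.46 to -0.21 (-0.21 without the first null pool at 24 h), and that of regulators from -0.19 to 0.14 (0.14 without the second). Coat genes ran from -0.26 to -0.09, lipases from -0.25 to -0.12 and triglyceride synthesis from -0.25 to -0.15. Over all genes the median was 0.01, and median centring moved it up by 0.13. Before surgery the medians of uptake, PPAR-alpha and triglyceride synthesis genes were 0.04, 0.03 and 0.00.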
